A study of Homo sapiens with 6 samples.

Results

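Enzymes modify and fold collagen inside the cell and crosslink it outside, and 10 genes for such enzymes and their helpers were followed here in lung cancer cells that overexpress TIPARP. They were taken by symbol from the 53826 entries of each deposited table, and all 10 symbols were found. They code for the lysyl hydroxylases PLOD1, PLOD2 and PLOD3, the prolyl 4-hydroxylase subunits P4HA1, P4HA2 and P4HB, the collagen chaperone SERPINH1, and the lysyl oxidases LOX, LOXL1 and LOXL2. RNA was sequenced from A549-TIPARP cells and A549-GFP cells, with 3 libraries per line. Both lines are A549, a human lung adenocarcinoma cell line, and both received a pMXs retroviral vector, carrying the TIPARP coding region in A549-TIPARP cells and GFP in the control. They are called the GFP line and the TIPARP line, and whether either is a single clone is not stated. Each group is therefore 1 stable line sampled 3 times, in experiments numbered 1 to 3, and nothing in the labels says that the experiments used separately transduced cells, so that p-values measure only the spread between these libraries.

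Prolyl 4-hydroxylase, an enzyme of the endoplasmic reticulum built from catalytic alpha subunits (P4HA1, P4HA2 or P4HA3) and the beta subunit P4HB, makes the hydroxyprolines that keep the collagen triple helix stable at body temperature. Lysyl hydroxylases convert selected lysines to hydroxylysines, which carry sugars and later form crosslinks, and SERPINH1 binds the folded helix and escorts it towards the Golgi apparatus. Lysyl oxidases are copper-dependent enzymes that act outside the cell, where they oxidise lysines and hydroxylysines so that collagen and elastin fibres become crosslinked. Fibroblasts are the main collagen makers of the lung, while epithelial cells make mainly basement membrane collagens. Low oxygen is known to induce several of these genes, among them P4HA1, P4HA2, PLOD2, LOX and LOXL2.

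The promoters of PLOD2 and P4HA1 are shown because both genes are textbook targets of the hypoxia-inducible factor HIF-1, whose response genes are described further on. Each window runs from 250 bases before to 50 bases after the annotated start, as given by RefSeq on GRCh38.p14, and is printed 5′ to 3′ on the strand of the gene. Capitals mark ACGTG, a form of the core of the HIF-1 binding motif, or its reverse complement CACGT, and no other form is marked. PLOD2 lies at chr3:146161135-146161434 on the minus strand and P4HA1 at chr10:73096817-73097116 on the minus strand.
PLOD2: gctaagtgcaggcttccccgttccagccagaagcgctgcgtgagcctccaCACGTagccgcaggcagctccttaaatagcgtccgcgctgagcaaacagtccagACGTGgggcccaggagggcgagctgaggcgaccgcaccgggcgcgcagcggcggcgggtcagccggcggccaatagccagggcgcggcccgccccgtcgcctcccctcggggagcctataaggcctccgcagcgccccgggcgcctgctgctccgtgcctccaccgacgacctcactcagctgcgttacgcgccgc
P4HA1: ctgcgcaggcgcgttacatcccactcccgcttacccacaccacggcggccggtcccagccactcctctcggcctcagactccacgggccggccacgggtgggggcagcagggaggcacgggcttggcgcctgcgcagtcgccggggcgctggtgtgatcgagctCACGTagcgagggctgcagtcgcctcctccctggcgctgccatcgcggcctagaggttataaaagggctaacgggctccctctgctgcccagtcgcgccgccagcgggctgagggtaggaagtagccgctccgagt
PLOD2 holds ACGTG once on each strand and P4HA1 once on the opposite strand. On either strand, ACGTG was found in at least 1 window of 4 of the 9 members with a promoter in the table, namely PLOD2, P4HA1, SERPINH1 and LOX, and in 21.4% of all 35116 promoter windows. LOXL2 was not among the 9. GCGTG, the core of the motif of the aryl hydrocarbon receptor, of which TIPARP is a known target gene, was found for 5 of the 9, namely PLOD1, PLOD2, P4HB, SERPINH1 and LOX, and in 36.5% of all windows. Matches on opposite strands can overlap, the motifs can share 1 base, and SERPINH1 and LOX have several annotated starts each. The percentages are shares of windows and not of genes, so they are not on the same measure as the counts of members. A match describes these letters only and is not evidence of binding.

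Expression was read as TPM, which gives the part of all transcripts in a library that belongs to a gene, corrected for transcript length, so that levels can be set side by side between genes. TPM keeps no read depth, and every TPM below 1 had been set to a floor of 1 in the deposited tables. In RNA from many cells, fewer expressing cells and less RNA per cell cannot be told apart. TIPARP itself, measured first as a check of the labels, had 6.79, 11.4 and 3.68 TPM in replicates 1, 2 and 3 of the GFP line, against 131, 90.5 and 123 TPM in the TIPARP line. By limma, a linear model fitted to the 13181 genes with TPM above 2 in at least 1 library, its adjusted p-value was 0.0125. That call was lost with any single library left out except A549-GFP replicate 2 (adjusted p from 0.0331 to 0.192), and over every alternative tried the adjusted p-value ranged from 0.00984 to 0.597. A549-GFP replicate 2 stood apart from the others, its genes departing from the line mean by 0.621 (root mean square) on the log2 scale against 0.185 to 0.400 in the other 5 libraries. All 7 epithelial markers (EPCAM, CDH1, KRT7, KRT8, KRT18, KRT19 and CLDN4) were above the floor, and their summed TPM ranged from 10778 to 23393 in A549-GFP cells and from 18549 to 22193 in A549-TIPARP cells. KRT19 alone among them was past 2-fold, with 4.57, 2.54 and 5.36 TPM in the GFP line, against 19.2, 19.0 and 10.9 TPM in the TIPARP line (limma adjusted p = 0.283), and its part in the values of the members was not tested. Of 8 fibroblast and stromal markers, 6 were at the floor in every library, DCN, PDGFRA and COL1A2 among them. The other two were LUM, above the floor in 1 library at 1.09 TPM, and ACTA2, and their summed TPM ranged from 13.1 to 35.8 in A549-GFP cells and from 18.3 to 38.8 in A549-TIPARP cells. All 6 endothelial markers were at the floor.

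Of the 10 members, 8 passed the limit of 2 TPM and were tested. LOX and LOXL1 were listed at the floor in all 6 libraries, so that neither was detectable above 1 TPM in either line. P4HB led by a wide margin, with a geometric mean of 768 TPM over the 6 libraries and a range from 673 to 941 TPM. Below it came SERPINH1 with 84.5 TPM (57.2 to 113), PLOD2 with 65.1 TPM (45.5 to 79.4), PLOD1 with 54.3 TPM (46.3 to 59.8), PLOD3 with 44.5 TPM (38.5 to 63.5), P4HA1 with 34.5 TPM (31.7 to 43.3), P4HA2 with 21.8 TPM (18.1 to 25.8) and LOXL2 with 12.1 TPM (7.92 to 19.3). The ranges of neighbours in this order overlapped from SERPINH1 down to P4HA1 and between P4HA2 and LOXL2. P4HB was clear of SERPINH1, and P4HA1 was clear of P4HA2. P4HB alone made up between 65.0% and 72.9% of the summed TPM of the 8 genes, and that sum ranged from 963 to 1291 TPM in A549-GFP cells and from 1036 to 1170 TPM in A549-TIPARP cells.

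**Figure D1:**
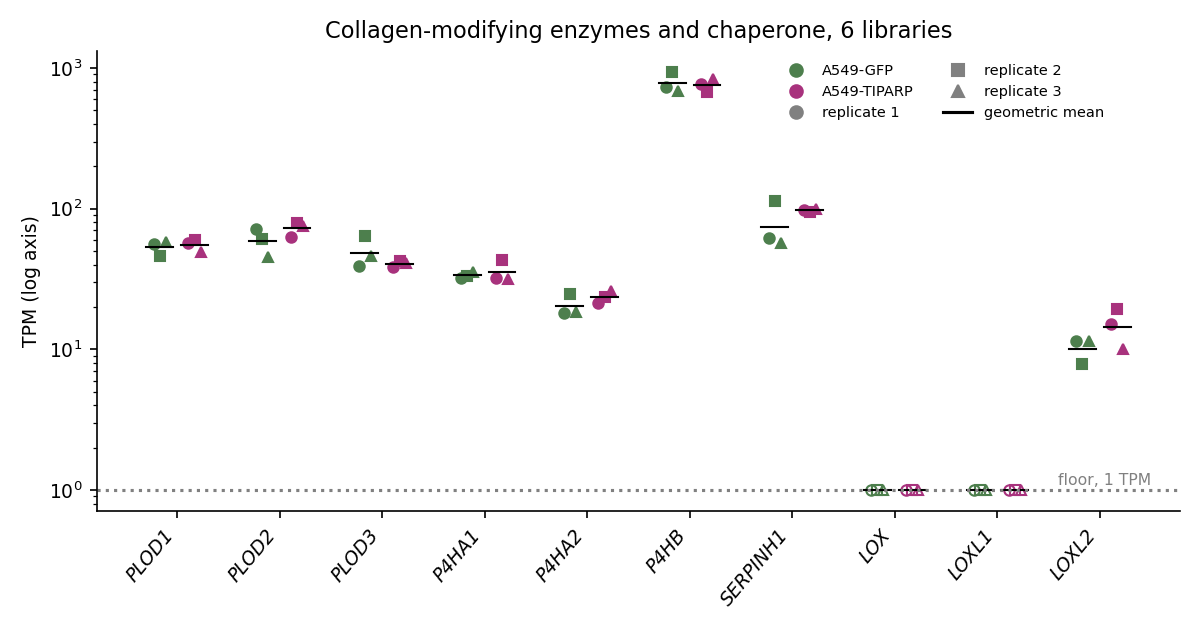
TPM of the 10 members in each of the 6 libraries, on a log axis, with a black line at the geometric mean of each line and open symbols at the floor of 1 TPM. P4HB stands between 673 and 941 TPM, LOX and LOXL1 sit at the floor in every library, and for each of the other 7 genes the A549-GFP and A549-TIPARP points overlap.

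None of the 8 measured members passed an adjusted p-value of 0.05 between the lines (limma, Benjamini-Hochberg over 13181 genes), against 0.0152% of all tested genes. At an unadjusted p-value under 0.05 the count was also 0 of 8, against 3.85% of all genes, and no member was past 2-fold, against 1.96% (1.53% higher and 0.432% lower in the TIPARP line). The values of the lines overlapped for all 8, while over all genes they were separate for 8.91% (5.36% higher and 3.54% lower in the TIPARP line). The mean was higher in A549-TIPARP cells for 6 of the 8 and lower for PLOD3 and P4HB. Over all genes the mean was higher in A549-TIPARP cells for 40.1%, and without A549-GFP replicate 2 for 56.9%, where 6 of the 8 members were higher, with PLOD1 (-0.05) and PLOD3 lower and P4HB (0.09) higher. The median log2 fold change of the 8 was 0.15, against -0.07 over all genes, within a range from -0.26 to 0.50. After GC correction the median of the 8 was 0.25. Their median SD within a line was 0.228 on the log2 scale against 0.331 over all genes, while SERPINH1 with 0.383 and LOXL2 with 0.401 lay above the latter.

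**Figure D2:**
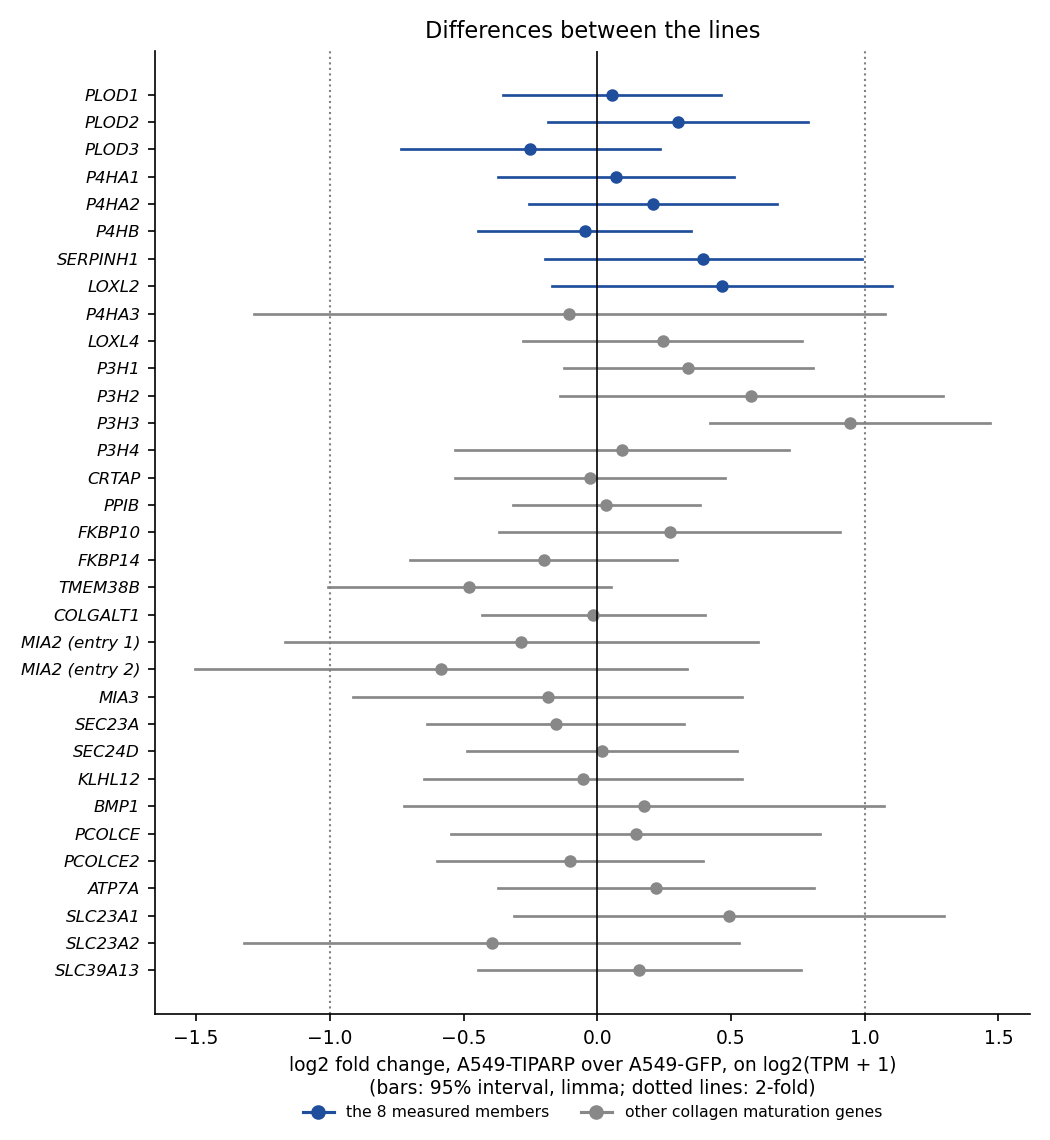
Log2 fold change of A549-TIPARP over A549-GFP on log2(TPM + 1), with the 95% interval from limma, for the 8 measured members and the 25 analysed entries of other collagen maturation genes. All 8 member intervals include 0, only that of LOXL2 reaches past the dotted 2-fold line, and P3H3 is the only gene shown whose interval lies wholly above 0.

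PLOD1 (Entrez Gene ID 5351; hg38 chromosome 1 from 11934205 to 11975538, plus strand, 19 exons in the canonical GENCODE 44 transcript) hydroxylates lysines within the collagen helix. Its TPM was 56.5, 46.3 and 57.7 across replicates 1, 2 and 3 of the GFP line, against 57.4, 59.8 and 49.4 in the TIPARP line. The lines overlapped, with A549-GFP replicate 2 the lowest library. The log2 fold change of 0.06 had a standard error of 0.18 and a 95% interval from -0.35 to 0.46 (limma adjusted p = 0.995).

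PLOD2 (Entrez Gene ID 5352; chromosome 3 from 146035139 to 146163725, minus strand, 20 exons) hydroxylates the telopeptide lysines that give the more stable, fibrosis-type crosslinks. It had 72.2, 61.2 and 45.5 TPM in the GFP line, against 63.2, 79.4 and 75.6 TPM in the TIPARP line. Replicate 3 of A549-GFP was the lowest of all, while A549-GFP replicate 1 lay above A549-TIPARP replicate 1. The log2 fold change of 0.30 had a standard error of 0.21 and a 95% interval from -0.19 to 0.79 (limma adjusted p = 0.994). When A549-GFP replicate 3 was left out the difference of mean log2 TPM went from 0.31 to 0.12, and once the libraries had been corrected for GC content it was 0.47 (limma unadjusted p = 0.0252, adjusted p = 0.717). Under that correction 6.24% of all genes had an unadjusted p-value under 0.05.

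PLOD3 (Entrez Gene ID 8985; chromosome 7 from 101205977 to 101218420, minus strand, 19 exons) is the lysyl hydroxylase that can also glycosylate hydroxylysine. It was measured at 39.2, 63.5 and 46.0 TPM in the GFP line, against 38.5, 42.4 and 41.3 TPM in the TIPARP line. The TIPARP line varied little and lay around the lowest control value, and A549-GFP replicate 2 was the highest library. The log2 fold change of -0.25 had a standard error of 0.21 and a 95% interval from -0.74 to 0.23 (limma adjusted p = 0.994). With A549-GFP replicate 2 left out the difference of mean log2 TPM went from -0.26 to -0.06, and with A549-GFP replicate 1 left out to -0.41.

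Within a library, PLOD2 made up 43.0%, 35.8% and 30.5% of the summed TPM of the 3 lysyl hydroxylases in A549-GFP replicates 1, 2 and 3 and 39.7%, 43.7% and 45.4% in A549-TIPARP. The mean share was 36.4% ± 6.29 (SD, n = 3) against 43.0% ± 2.93 (SD, n = 3), and the libraries overlapped (exact permutation test, two-sided, p = 0.2, adjusted p = 0.6 over the 4 shares and ratios computed). With 3 libraries against 3 the smallest p-value this test allows is 0.1.

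P4HA1 (Entrez Gene ID 5033; chromosome 10 from 73007217 to 73096974, minus strand, 15 exons) and P4HA2 (Entrez Gene ID 8974; chromosome 5 from 132190147 to 132295315, minus strand, 15 exons) are alternative catalytic subunits of prolyl 4-hydroxylase. P4HA1 had 32.3, 33.0 and 35.7 TPM in the GFP line, against 32.2, 43.3 and 31.7 TPM in the TIPARP line. A549-TIPARP replicate 2 was the highest library, and the other 5 lay within a narrow band. Its log2 fold change of 0.07 had a standard error of 0.19 and a 95% interval from -0.37 to 0.51 (limma adjusted p = 0.995).

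P4HA2 had 18.1, 24.6 and 18.5 TPM in the GFP line, against 21.4, 23.6 and 25.8 TPM in the TIPARP line. A549-GFP replicate 2 lay inside the A549-TIPARP range and the other A549-GFP libraries below it. The log2 fold change of 0.21 had a standard error of 0.20 and a 95% interval from -0.25 to 0.67 (limma adjusted p = 0.994). With A549-GFP replicate 2 left out the difference of mean log2 TPM went from 0.22 to 0.36, against 0.14 without A549-GFP replicate 1, and the lines no longer overlapped (limma adjusted p = 0.484).

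P4HB (Entrez Gene ID 5034; chromosome 17 from 81843159 to 81860856, minus strand, 11 exons) is protein disulfide isomerase, which serves as the beta subunit and also as a general foldase of the endoplasmic reticulum. Its TPM was 732, 941 and 691 in the GFP line, against 766, 673 and 837 in the TIPARP line. A549-GFP replicate 2 was the highest library and A549-TIPARP replicate 2 the lowest. The log2 fold change of -0.05 had a standard error of 0.17 and a 95% interval from -0.44 to 0.35 (limma adjusted p = 0.997), the narrowest among the 8 members. When libraries were rescaled to equal median ratios the difference of mean log2 TPM was 0.02. That rescaling moves the log2 difference of every gene that stays above the floor by the same amount, and a value this close to 0 has no settled direction.

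P4HA1 made up 64.0%, 57.3% and 65.8% of the TPM of P4HA1 and P4HA2 together in A549-GFP replicates 1, 2 and 3, and 60.1%, 64.7% and 55.1% in A549-TIPARP. It was the larger of the pair in all 6 libraries, with a mean share of 62.4% ± 4.48 (SD, n = 3) in A549-GFP cells and 60.0% ± 4.81 (SD, n = 3) in A549-TIPARP cells (exact permutation test, two-sided, p = 0.6, adjusted p = 0.6). The TPM of P4HB was 14.5, 16.4 and 12.7 times that of both alpha subunits in A549-GFP cells and 14.3, 10.1 and 14.6 times in A549-TIPARP cells. The mean ratio was 14.5 ± 1.81 (SD, n = 3) against 13.0 ± 2.53 (SD, n = 3), with overlapping libraries (exact permutation test, two-sided, p = 0.5, adjusted p = 0.6).

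**Figure D3:**
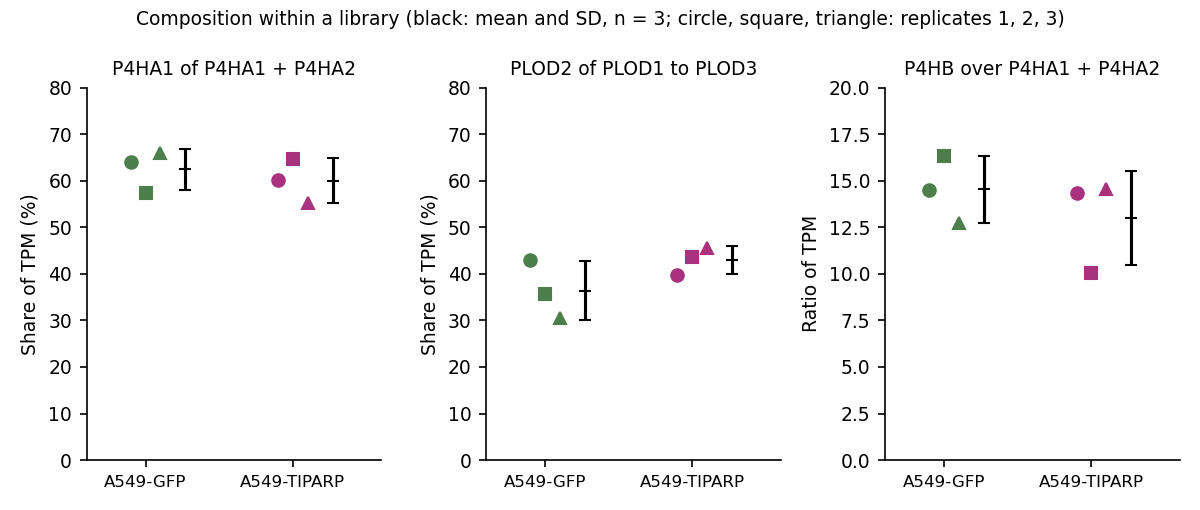
Share of P4HA1 among both alpha subunits, share of PLOD2 among the lysyl hydroxylases, and ratio of P4HB to both alpha subunits, per library, with the mean and SD of each line (n = 3). The lines overlap in all panels, and the mean share of PLOD2 is 36.4% in A549-GFP cells and 43.0% in A549-TIPARP cells.

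SERPINH1 (Entrez Gene ID 871; chromosome 11 from 75562056 to 75572783, plus strand, 5 exons) had 61.4, 113 and 57.2 TPM across replicates 1, 2 and 3 of the GFP line, against 97.9, 94.4 and 99.2 TPM in the TIPARP line. The A549-TIPARP libraries lay close together, above A549-GFP replicates 1 and 3 and below A549-GFP replicate 2, so that the lines overlapped through that library alone. The mean log2 TPM was 6.20 ± 0.54 (SD, n = 3) and 6.60 ± 0.04 (SD, n = 3). The log2 fold change of 0.40 had a standard error of 0.26 and a 95% interval from -0.19 to 0.99 (limma adjusted p = 0.994). A549-GFP replicate 2 was 0.93 on the log2 scale, or 1.91-fold, above the other A549-GFP libraries in SERPINH1, where the median over all genes was 0.38. Without it the difference of mean log2 TPM went from 0.40 to 0.71, or 1.64-fold. The unadjusted limma p-value was then 0.000695 and the adjusted p-value 0.225, so that SERPINH1 did not pass the threshold there either, as 0.0228% of all genes did. Without that library the values of the lines did not overlap, with A549-TIPARP higher, for 2 of the 8 members, SERPINH1 and P4HA2, while this held for 21.2% of all genes. SERPINH1 was the 1 member with an unadjusted p-value under 0.05 there, against 10.5% of all genes. The median log2 fold change of the 8 members without that library was 0.21, against 0.05 over all genes. With A549-GFP replicate 3 left out instead, the difference for SERPINH1 was 0.22. When all 6 libraries were rescaled to equal median ratios the unadjusted p-value of SERPINH1 was 0.0460 (limma adjusted p = 0.827), and 5.96% of all genes were under 0.05.

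**Figure D4:**
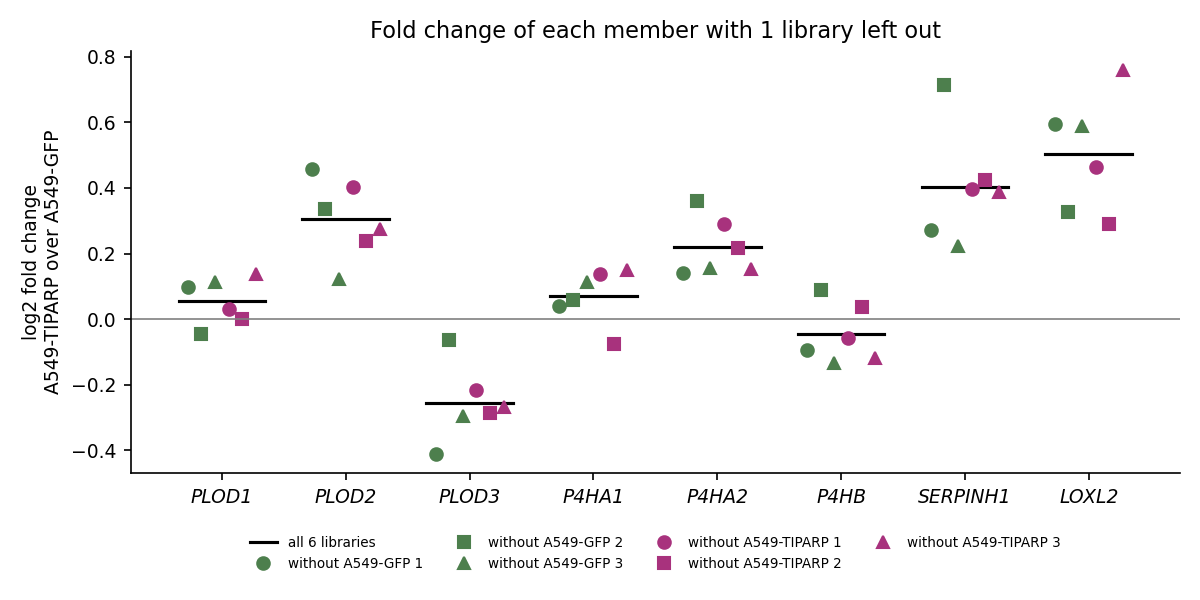
Difference of mean log2 TPM of the 8 measured members with all 6 libraries (black lines) and with each library left out in turn (symbols named by the library left out). SERPINH1 ranges from 0.22 to 0.71, with its highest value without A549-GFP replicate 2, and LOXL2 from 0.29 to 0.76, with its highest value without A549-TIPARP replicate 3.

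LOXL2 (Entrez Gene ID 4017; chromosome 8 from 23296897 to 23425328, minus strand, 14 exons), a lysyl oxidase that acts on basement membrane collagen, had the largest fold change and the widest interval of the 8 with all 6 libraries. It had 11.5, 7.92 and 11.4 TPM in the GFP line, against 15.2, 19.3 and 10.1 TPM in the TIPARP line. A549-TIPARP replicates 1 and 2 were above every A549-GFP library, and A549-TIPARP replicate 3 was below A549-GFP replicates 1 and 3. The geometric mean was 1.42-fold higher in A549-TIPARP cells, and the log2 fold change on log2(TPM + 1) was 0.47 (standard error 0.28, limma adjusted p = 0.994), with a 95% interval from -0.17 to 1.10. Without A549-TIPARP replicate 3 the difference of mean log2 TPM went from 0.50 to 0.76 (limma unadjusted p = 0.0390, which did not pass after adjustment, and 2.42% of all genes had an unadjusted one under 0.05 there), and without A549-TIPARP replicate 2 it was 0.29, below SERPINH1 with 0.42. Without A549-GFP replicate 2 the difference for LOXL2 was 0.33, below those of SERPINH1, P4HA2 and PLOD2.

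LOX (Entrez Gene ID 4015; chromosome 5 from 122063195 to 122078413, minus strand, 7 exons), the founding lysyl oxidase, and LOXL1 (Entrez Gene ID 4016; chromosome 15 from 73925989 to 73952137, plus strand, 7 exons), which is known for its role in elastic fibres, were at the floor in both lines. With both counted at the floor, LOXL2 made up at least 79.8% of the TPM of the 3 lysyl oxidases in every library, and at least 90.6% in A549-TIPARP replicate 2. This lower bound follows the TPM of LOXL2 alone, so that a comparison of it between the lines only restates LOXL2 and is not given. It is one of the 4 measures over which the p-values of the shares were adjusted. Of the other paralogues, LOXL3 was at most 1.13 TPM and was not tested. LOXL4 stayed at the floor throughout the GFP line and in A549-TIPARP replicate 2, and reached 1.18 and 2.06 TPM in A549-TIPARP replicates 1 and 3, so that it passed the limit of 2 TPM only through the TIPARP line (limma adjusted p = 0.994). The third alpha subunit, P4HA3, had 5.46, 18.9 and 4.28 TPM in the GFP line, against 6.42, 4.59 and 12.2 TPM in the TIPARP line. Its log2 fold change of -0.10 had a standard error of 0.52 (limma adjusted p = 0.998), and the difference of mean log2 TPM went from -0.10 to 0.56 without A549-GFP replicate 2 and to 0.22 without A549-TIPARP replicate 2. That difference was -0.34 without A549-GFP replicate 1, -0.52 without A549-GFP replicate 3 and -0.49 without A549-TIPARP replicate 3.

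A wider list of 31 genes of collagen maturation gave 25 analysed entries out of 32. With LOXL4 left out of the counts, since it passed the limit of 2 TPM only through the line where it is higher, 12 of the other 24 had a mean that was higher in the TIPARP line and 12 one that was lower, with a median log2 fold change of 0.0029 against -0.07 over all genes. Values over all genes, here and beside the other lists, keep entries of that kind. Without A549-GFP replicate 2 the balance moved to 18 of 24 higher and a median of 0.23, against 56.9% and 0.05 over all genes. With all 6 libraries the lines did not overlap for 2 that were higher, P3H1 and P3H3, and 1 that was lower, TMEM38B, against 5.36% and 3.54% of all genes. Without A549-GFP replicate 2 this held for 6 of the 24 that were higher and 1 that was lower, against 2800 and 846 of all 13181 genes. In the fit of all libraries none passed an adjusted p-value of 0.05, and 1 was higher at an unadjusted p-value under 0.05, while over all genes 2.97% were higher and 0.88% lower at that limit. That gene was P3H3, a member of the prolyl 3-hydroxylase family, which had 7.68, 8.65 and 11.4 TPM in the GFP line, against 15.5, 19.2 and 21.2 TPM in the TIPARP line. All values of the TIPARP line exceeded those of the control, and the geometric mean was 2.03-fold higher, with a log2 fold change on log2(TPM + 1) of 0.94 (standard error 0.23, limma adjusted p = 0.631, unadjusted p = 0.00297). With any of A549-GFP replicates 1 and 2 or A549-TIPARP replicates 2 and 3 left out P3H3 was no longer past 2-fold, and over the 6 fits its difference of mean log2 TPM ran from 0.90 to 1.18. Its relatives P3H1 and P3H2, named after their values were seen, had differences of mean log2 TPM of 0.36 and 0.67, each with a limma adjusted p-value of 0.994. P3H4, listed with them and also named with its values in view, had a difference of 0.09 (limma adjusted p = 0.995). CRTAP and PPIB, which form a complex with P3H1, had differences of -0.03 and 0.03. Without A549-GFP replicate 2, 3 entries of the wider list were higher at an unadjusted p-value under 0.05, namely P3H3, FKBP10 and BMP1, out of 24, against 9.30% of all genes.

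In the roles nearest to the members, the values lay on both sides of 0. FKBP10, a prolyl isomerase that supports the telopeptide lysyl hydroxylase PLOD2, had 86.0, 167 and 92.3 TPM in the GFP line, against 116, 118 and 170 TPM in the TIPARP line. TMEM38B, an ion channel of the endoplasmic reticulum whose loss disturbs lysyl hydroxylation, had 11.8, 10.3 and 8.27 TPM in the GFP line, against 7.26, 8.02 and 5.65 TPM in the TIPARP line. All its A549-TIPARP libraries were below all its A549-GFP libraries, at a log2 fold change of -0.48 (standard error 0.23, limma adjusted p = 0.994). FKBP10, BMP1, TMEM38B, CRTAP, PPIB, ATP7A, MIA2 and LDHA were chosen for mention with their values in view. The 6 entries of procollagen export genes, 2 of them for MIA2, had a median log2 fold change of -0.18, and the 4 cofactor transporters, with the copper pump ATP7A that supplies lysyl oxidases among them, had one of 0.22. Without A549-GFP replicate 2 these medians were 0.11 and 0.38.

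Of 15 fibrillar and basement membrane collagen chains, the main substrates of the members, 8 were analysed. COL1A1 and COL5A3 passed the limit of 2 TPM through 1 library each, of the line where they were higher, and are left out of the counts here, a choice made with their values known. For all 6 other chains the mean of the TIPARP line was higher, against 40.1% of all genes. Their median log2 fold change was 0.67, against -0.07 over all genes. Without A549-GFP replicate 2 the median was 0.53, again with 6 of 6 higher, against 0.05 and 56.9% over all genes. With all 6 libraries the differences ran from 0.01 for COL4A4 to 0.93 for COL4A2. In A549-GFP replicate 2 COL4A1 was at the floor and COL4A2 at 6.09 TPM. In A549-GFP replicates 1 and 3 COL4A1 had 5.38 and 2.79 TPM, and COL4A2 20.6 and 14.0 TPM. None of the 6 chains passed a limma adjusted p-value of 0.05. With all 6 libraries COL5A2 alone had an unadjusted one under 0.05, against 3.85% of all genes. It had 4.22, 4.84 and 2.95 TPM in the GFP line, against 7.40, 6.72 and 5.61 TPM in the TIPARP line (limma adjusted p = 0.994). The lines did not overlap for COL5A2, 1 of the 6, against 8.91% of all genes. Without A549-GFP replicate 2 they did not overlap for 2 of the 6, both higher, against 21.2% of all genes higher. In that fit COL5A2 and COL4A5 were higher at an unadjusted limma p-value under 0.05, against 9.30% of all genes. COL1A1 reached 2.56 TPM in A549-TIPARP replicate 3, and COL5A3 reached 2.33 TPM in A549-GFP replicate 2 and was at the floor throughout the TIPARP line. COL1A2 and COL3A1 were at the floor in every library.

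P4HB and SERPINH1 are also part of the folding machinery of the endoplasmic reticulum, and 13 other genes of that machinery were set beside them. All 13 were analysed, the mean of the TIPARP line was higher for 6 and lower for 7, against 40.1% higher over all genes, and none had an unadjusted p-value under 0.05, against 3.85%. Their median log2 fold change was -0.04, against -0.05 for P4HB and 0.40 for SERPINH1. Without A549-GFP replicate 2 the mean was higher for 9 of the 13 and the median was 0.08, with 0.09 for P4HB and 0.71 for SERPINH1. The values over all genes moved the same way, to 56.9% higher and a median of 0.05.

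Of 12 hypoxia-response genes that are not members, ANKRD37 is left out of the counts here because it passed the limit of 2 TPM only through the GFP line, where it is higher. For the other 11 the mean of the TIPARP line was higher for 4 and lower for 7, with a median log2 fold change of -0.01, against -0.07 and 40.1% with a higher mean over all genes. None passed an adjusted p-value of 0.05, while 2 were higher and 0 lower at an unadjusted one under 0.05, against 2.97% and 0.88% of all genes. Without A549-GFP replicate 2 the mean was higher for 5 of the 11, against 56.9%, and at that limit ADM and NDRG1 were higher and LDHA was lower, against 9.30% and 1.16% of all genes. ADM, a vasodilator peptide, had 49.9, 40.0 and 49.2 TPM in the GFP line, against 67.4, 68.9 and 67.6 TPM in the TIPARP line (limma adjusted p = 0.932). NDRG1, a stress-response gene, had 30.4, 26.0 and 45.0 TPM in the GFP line, against 49.4, 58.3 and 57.0 TPM in the TIPARP line (limma adjusted p = 0.966). ANKRD37 measured 1.40, 2.76 and 3.15 TPM in the GFP line and was listed at the floor in all A549-TIPARP libraries (limma adjusted p = 0.987). The hypoxia-inducible members P4HA1, P4HA2, PLOD2 and LOXL2 had log2 fold changes of 0.07, 0.22, 0.31 and 0.50 on the deposited log2 scale, and their lines overlapped.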

How the data were processed

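Total RNA of A549-GFP and A549-TIPARP cells (3 libraries each) was made into stranded mRNA libraries and sequenced as paired ends. Strand NGS with default settings served the authors for alignment to human transcripts (hg38), and they deposited log2 TPM per gene and library, with no read counts. Its version, the annotation release and how multi-mapping reads were handled are not given in the sources used here. In the deposited log2 values TPM below 1 had been set to 1, and between 40106 and 40891 of 53826 entries per library were at this floor. Read depth is unknown, so no counting error could be given.

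Groups and replicate numbers were taken from the sample titles. Genes with TPM above 2 in at least 1 library were kept, 13181 in all. Lines were compared with limma 3.58.1 (R 4.3.3) on log2(TPM + 1) with a variance trend, Benjamini-Hochberg adjustment, all 6 libraries and no block. A count test named beforehand for the case of counts was not run. Intervals use limma's moderated degrees of freedom. Differences of mean log2 TPM, medians and 2-fold limits use the deposited scale, without a pseudocount. The pseudocount lowers the fold change of weakly expressed genes. Shares were compared with exact permutation tests in Python 3.11.15. The fit was also tested on simulated data. Deviations of same-numbered libraries correlated with r = 0.415, -0.486 and -0.358. Deviations from a line mean depend on each other within a line, so these values cannot show whether the numbers pair the libraries. The labels do not state it either.

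Alternatives were the deposited log2 scale or a smaller pseudocount in the fit, the same TPM limit in 3 or more libraries, no filter (run on entries above the floor in any library), no variance trend, median-ratio rescaling, removal of small RNA entries, a lowess correction for transcript GC content (a value for 98.3% of the analysed genes), the replicate block, and single libraries left out. Named are all members, genes of the other lists with an unadjusted p-value under 0.05 or past 2-fold, the paralogues P4HA3, LOXL3 and LOXL4, and TIPARP. Markers and other genes named outside this rule were chosen with their values known. In counts of the other lists, entries above 2 TPM in only 1 line were left out, also a choice made with the values known. The shares and medians over all genes were taken without that exclusion. Members and lists were chosen with earlier results of these data known. Coordinates are from GENCODE 44 on hg38.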

Additional observations from a re-analysis of the deposited data

How the results depend on the processing

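No member had a limma adjusted p-value under 0.05 or was past 2-fold under any alternative tried, and the lowest adjusted p-value of a member was 0.225. Whether same-numbered libraries belong together is not stated in the labels. With the replicate block the number of members called was 0, and the number with an unadjusted p-value under 0.05 was 0. The block changed no call of a member, while the limma adjusted p-value of TIPARP was 0.513. The number of members with an unadjusted p-value under 0.05 was 1 after median-ratio rescaling (SERPINH1) and 1 after GC correction (PLOD2), and ranged from 0 to 1 when single libraries were dropped. For the members the median of 0.15 became 0.25 after GC correction, alone or with the replicate block, and ranged from 0.12 to 0.21 when single libraries were dropped, and the cause was not tested. Of 136 values of single members 131 kept their direction and side of the threshold, and 5, all close to 0, changed sign, those of P4HB (0.0192 after rescaling, which shifts all genes above the floor alike, and -0.13 to 0.0884 over single omissions), PLOD1 (-0.0450 to 0.14) and P4HA1 (-0.0753 to 0.15). P4HA3 ranged from -0.52 to 0.56. The difference in the share of P4HA1 between the lines, -2.43 percentage points, ranged from -4.96 to 0.00480 with each library left out, that of PLOD2 from 3.58 to 9.84 and that of the ratio of P4HB to its alpha subunits from -2.45 to -0.0973. After GC correction these were -1.81, 9.71 and -2.73. With 3 libraries a line, the 95% intervals of the members reach up to between 1.18-fold (PLOD3) and 2.15-fold (LOXL2), and down to between 0.601-fold (PLOD3) and 0.890-fold (LOXL2), A549-TIPARP over A549-GFP. The fold change on log2(TPM + 1) was an alternative chosen after the data were seen.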
